A study of Rattus norvegicus with 4 samples.

Results

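The small leucine-rich proteoglycans are secreted core proteins of the extracellular matrix, and 10 of them were followed in the rat carotid body (CB), a tiny chemosensory organ beside the carotid artery that senses blood oxygen. The 10 genes were taken by symbol: Dcn, Bgn, Aspn, Lum, Fmod, Prelp, Kera, Omd, Epyc and Ogn. Each had a row of its own among the 32883 entries of the gene count table. CBs of Sprague Dawley rats were compared between neonates (day 5) and adults (day 21), with 2 libraries of each age and no treatment at either age. The series description gives pools of 6 pups or 3 adult rats per library, the study's methods give larger pools and another number of replicates, and the rats included females and males. Age, pool size and any difference in dissection therefore cannot be told apart, and a p-value measures the spread between these pooled libraries.

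Small leucine-rich proteoglycans carry a horseshoe-shaped stack of leucine-rich repeats, with which most of them bind collagen fibrils and set the width and spacing of those fibrils. Class I members carry chondroitin or dermatan sulfate chains, or none in the case of asporin. Class II members carry keratan sulfate chains or tyrosine sulfate, and class III members are short core proteins of cartilage, bone and soft connective tissue. Several members also bind transforming growth factor beta or receptors at the cell surface. In the CB, the fibroblasts of the capsule and of the septa between glomus cell clusters are typical sources of such proteins, but these libraries hold RNA of whole organs, so that fewer cells of a type and less RNA per cell cannot be told apart.

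Of the 10 genes, 4 lie next to each other on chromosome 7, in the order Dcn, Lum, Kera and Epyc, by the RefSeq gene table of the rat assembly GRCr8. Ogn, Omd and Aspn follow each other on chromosome 17, Prelp and Fmod are neighbours on chromosome 13, and Bgn is on chromosome X. RefSeq start-site windows were matched by symbol for 7 of the 10 genes, and Dcn, Bgn and Prelp were not among them. The 250 bases before the start sites of the 3 matched genes of the chromosome 7 cluster are shown, because Kera differed with age in the opposite direction to Lum and Epyc beside it. Each is written 5′ to 3′ on the plus strand, with the motif CCAAT or its reverse complement in capitals.
Lum, chr7:34245456-34245705: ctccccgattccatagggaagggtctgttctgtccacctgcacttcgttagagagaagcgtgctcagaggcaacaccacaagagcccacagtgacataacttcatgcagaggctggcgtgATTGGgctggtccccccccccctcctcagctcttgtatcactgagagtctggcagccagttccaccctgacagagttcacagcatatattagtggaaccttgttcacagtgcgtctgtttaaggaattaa
Kera, chr7:34283850-34284099: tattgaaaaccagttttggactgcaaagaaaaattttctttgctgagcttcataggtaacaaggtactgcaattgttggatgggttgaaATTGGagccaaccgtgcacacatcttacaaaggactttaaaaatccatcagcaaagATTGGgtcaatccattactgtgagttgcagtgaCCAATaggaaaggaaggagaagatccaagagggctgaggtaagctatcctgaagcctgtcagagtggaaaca
Epyc, chr7:34323082-34323331: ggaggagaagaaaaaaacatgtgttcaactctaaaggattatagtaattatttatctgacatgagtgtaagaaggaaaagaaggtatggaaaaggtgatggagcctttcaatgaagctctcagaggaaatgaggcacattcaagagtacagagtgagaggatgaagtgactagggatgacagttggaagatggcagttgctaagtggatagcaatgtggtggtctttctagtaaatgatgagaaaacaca
CCAAT was found on either strand at 3 places before Kera, at 1 place before Lum and at none before Epyc. The matches before Kera began 161, 105 and 72 bases before the start site, the first 2 of them on the minus strand, and the match before Lum began 130 bases before it, on the minus strand. CCAAT was found in 3 of the 7 windows, those of Fmod, Lum and Kera. Of 33469 rat windows of the same length, 34.0% held at least 1 match and 2.52% held at least 3. The other motifs searched on both strands were the TATA motif TATAAA, found in 1 of the 7 windows and in 12.9% of all rat windows, and the E-box motif CANNTG, found in 5 and in 65.5%. The AP-1 motif TGANTCA was found in 0 of the 7 windows and in 6.34% of all, and the GC box motif GGGCGG in 1 and in 30.5%. E-box matches were repeated too, before Epyc and before Ogn. The share of windows with repeated matches was counted for CCAAT alone, so the repeats before Kera do not set it apart. These are matches of letters only, and no binding was measured.

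Levels are given as CPM, the estimated count of a gene per 1000000 counts of its library. The totals ran from 36286191 to 39476110 estimated counts, at which 3 counts, used here as the floor of detection, equal 0.0760 to 0.0827 CPM. The floor covers counting error only. Differences are log2 fold changes of neonates over adults from the quasi-likelihood test of edgeR on counts scaled by TMM, a method that corrects for differences in make-up between libraries, so that a negative value means a higher level in adults. A gene passed the test at a Benjamini-Hochberg adjusted p under 0.05 over all 13838 genes tested, and was called where it also differed at least 2-fold. TMM moved the centre of the data: without it, by library size alone, the middle log2 fold change over the genes tested was -0.25 in place of -0.0029. No transcript lengths were used, so levels were compared between ages and not between genes.

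All 6 glomus cell markers listed were detected in all 4 libraries, with Th, the enzyme that limits dopamine synthesis, at 917, 781, 1517 and 1242 CPM for neonates 1 and 2 and adults 1 and 2. With age the list was mixed. Of the 6, 2 passed the test with higher levels in adults and 3 in neonates, against 31.1% and 31.2% of all genes. In each direction 1 was called, against 13.2% and 7.68% of all genes, and the median log2 fold change was 0.59. Chga, among the 3 that passed toward neonates, was at 1552 and 740 CPM in neonates and at 848 and 723 CPM in adults. Its ages overlapped, and its high value was that of neonatal library 1. Neonatal library 1 stood apart from the other libraries. Pth, the hormone of the neighbouring parathyroid gland, was at 1595 CPM there, 194 CPM in neonatal library 2 and 0 in both adult libraries. Members whose call or pass changes without this library are given both ways.

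In adults the members together took a larger share of all counts. The sum of the 10 was 0.190% and 0.227% of a library's counts in neonates, against 0.344% and 0.382% in adults. With the 2 further entries that shared reads with Omd and Ogn, described under those genes, it was 0.204% and 0.244% against 0.371% and 0.415%. The make-up of this second sum differed as well. Dcn was 20.6% and 22.4% of it in neonates and 36.9% and 39.9% in adults, whereas Bgn was 39.0% and 36.4% in neonates and 24.6% and 19.9% in adults. Lum stayed between 20.1% and 22.7% in all 4 libraries.

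All 10 members passed the filter, which asked for 1 CPM or more in 2 libraries, and 8 of them were at 1 CPM or more in every library. Kera passed only through the neonatal libraries and Omd only through the adult ones, so their difference was built into the filter. Of the 8 genes, 3 were called higher in adults (Dcn, Prelp and Epyc) and 0 were called higher in neonates, against 13.2% and 7.68% of all genes tested. At any fold, 6 of the 8 passed the test with higher levels in adults and 0 with higher levels in neonates, against 31.1% and 31.2% of all genes. The other 2, Bgn and Aspn, did not pass. Their 8 log2 fold changes ran from -2.11 to 0.24 with a median of -0.70.

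**Figure D1:**
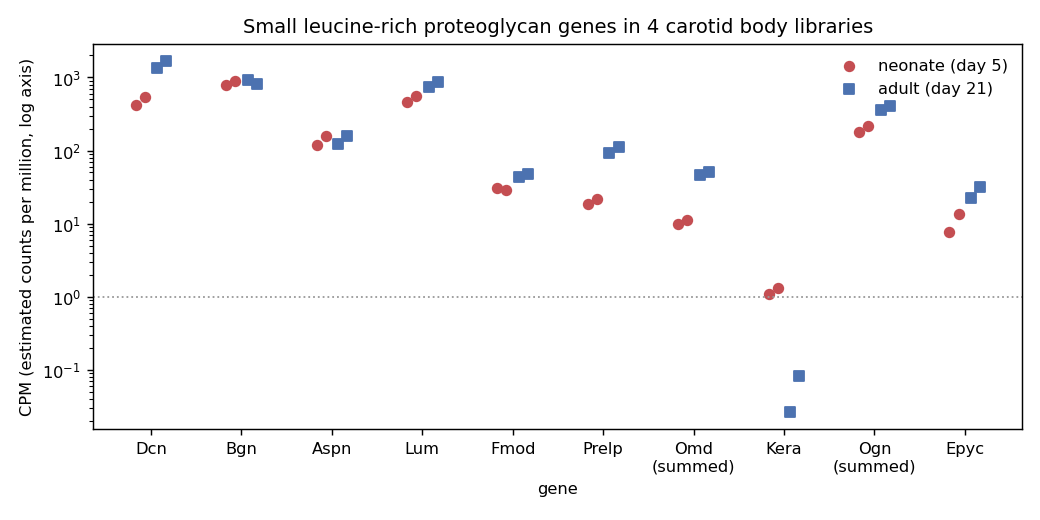
Level of each member in the 4 libraries, in CPM on a log axis, with circles for neonates and squares for adults. The dotted line marks 1 CPM, and Omd and Ogn are each summed with the entry that shares their reads. Prelp, Omd and Dcn are higher in both adult libraries, Bgn and Aspn overlap between ages, and Kera alone is higher in both neonatal libraries.

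Among the class I genes, decorin differed with age while its closest relative biglycan did not pass the test. Decorin wraps around collagen I fibrils through its leucine-rich repeats, limits their sideways fusion and carries a single glycosaminoglycan chain. Dcn was at 420 and 547 CPM in neonates and at 1369 and 1654 CPM in adults. The ages did not overlap, and the lower adult value was above the higher neonatal value. The log2 fold change was -1.40 ± 0.13 (SE, n = 2 libraries per age), or 2.64-fold higher in adults, with an adjusted p of 3.9e-05 in edgeR. Without neonatal library 1 it was -1.24, with an adjusted p of 3.7e-05.

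Biglycan, encoded on the X chromosome, usually carries a pair of chains and is known as a ligand of toll-like receptors once it is released from the matrix. Bgn was at 795 and 888 CPM in neonates and at 912 and 825 CPM in adults, and the ages overlapped. Its log2 fold change was 0.20 ± 0.10 (SE), with a 95% interval of -0.02 to 0.42 and an adjusted p of 0.11 in edgeR. By library size alone the sign turned, with -0.05 and an adjusted p of 0.72, whereas DESeq2 gave 0.20 with an adjusted p of 0.045, under the threshold. Asporin has a stretch of aspartic acid residues and no glycosaminoglycan chain. Aspn was at 120 and 160 CPM in neonates and at 124 and 156 CPM in adults, so that the spread within an age was larger than the difference between ages. Its log2 fold change was 0.24 ± 0.14 (SE), with a 95% interval of -0.06 to 0.55 and an adjusted p of 0.15. Without neonatal library 1 or adult library 2 it did pass the test, at 0.43 (adjusted p = 0.014) and 0.39 (adjusted p = 0.034) in edgeR, whereas by library size alone it was 0.00.

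The class II genes held the gene with the strongest called rise among the 8 broadly detected members as well as Kera. Prelp encodes a core protein with a basic, proline- and arginine-rich end that binds heparan sulfate and links basement membranes to the collagen around them. Prelp was at 18.3 and 21.6 CPM in neonates and at 92.0 and 112 CPM in adults, with no overlap. It rose 4.31-fold in adults (log2 fold change -2.11 ± 0.12, SE, adjusted p = 3.6e-06 in edgeR).

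Lumican and fibromodulin, keratan sulfate proteoglycans that bind overlapping sites on collagen I, differed less. Lum was at 454 and 553 CPM in neonates and at 745 and 862 CPM in adults. Fmod was at 31.0 and 28.7 CPM in neonates and at 43.5 and 47.1 CPM in adults. For both genes every adult library was above every neonatal library, but the fold was under 2. It was 1.35-fold for Lum (log2 fold change -0.43 ± 0.11, SE, adjusted p = 0.0082) and 1.28-fold for Fmod (-0.35 ± 0.10, SE, adjusted p = 0.012). These 2 passed with little to spare: without neonatal library 1 the adjusted p of Lum was 0.056, and that of Fmod was 0.062 without adult library 2 and 0.068 without neonatal library 2.

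Keratocan, the keratan sulfate proteoglycan for which the cornea is known, was at the edge of detection. Kera had 43 and 50 counts in the neonatal libraries and 1 and 3 counts in the adult libraries, that is 1.09 and 1.30 CPM against 0.0265 and 0.0827 CPM. Both adult values were at or under the floor of 3 counts. The ratio of the summed counts per total was 22.1, with a 95% exact counting interval of 8.34 to 82.7 that leaves out the spread between pools. edgeR gave a log2 fold change of 4.62 ± 0.64 (SE, adjusted p = 0.00027), and Kera was the only member called higher in neonates. Because Kera passed the filter through the neonatal libraries alone, the direction of this call was built into the filter. Without either neonatal library it fell below the filter and was not tested. Its neighbours Dcn, Lum and Epyc on chromosome 7 had negative log2 fold changes, all past the test.

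Tnmd and Col2a1, markers of tendon and cartilage, moved with Kera, and the cartilage marker Acan moved the other way. Tnmd was at 3.04 and 2.18 CPM in neonates and at 0.450 and 0.276 CPM in adults, and Col2a1 at 14.9 and 20.6 CPM against 1.30 and 2.95 CPM. Over the whole lists the picture was mixed. Of the 3 tendon markers, 2 were tested, and Scx did not pass. The other, Tnmd, was called higher in neonates, but it passed the filter through the neonatal libraries alone, as Kera did. The list had sums of 5.34 and 3.61 CPM in neonates and 2.04 and 1.68 CPM in adults. Of the 7 cartilage markers, 4 were tested, with 1 called in each direction, against 13.2% of all genes toward adults and 7.68% toward neonates. Acan was the 1 called higher in adults (log2 fold change -2.20), and it passed the filter through the adult libraries alone. Sox9 and Comp did not pass. The cartilage list had sums of 19.6 and 26.9 CPM against 8.60 and 10.5 CPM, with Matn1 at 0 in all 4 libraries. The part of tendon or cartilage in the level of Kera was not tested.

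Osteomodulin, a class II protein of mineralized tissue that binds collagen, needs its reads looked at before its values. As deposited, Omd was at 0 counts in both neonatal libraries and at 225 and 95.7 counts in the adult libraries, or 5.95 and 2.64 CPM. Taken alone, that is at least 55.8-fold higher in adults, against a floor of 3 counts per neonatal library. The adult counts were fractional, which arises where a read fits several transcripts and the estimate divides it among them. Of the 2805 entries with a fractional count in any library, exactly 1, LOC103690116, had counts that added to whole numbers with those of Omd in all 4 libraries, within 0.003 counts. This entry had 391 and 429 counts in neonates and 1544 and 1746 counts in adults. It was found from these sums after the values were seen, its sequence was not compared with that of Omd, and it had no match in the RefSeq table.

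The sums were 391 and 429 counts in neonates and 1769 and 1842 counts in adults. Omd held 0% of them in both neonatal libraries and 12.7% and 5.19% in the adult libraries. Summed, the pair was at 9.90 and 11.1 CPM in neonates and at 46.8 and 50.8 CPM in adults, again with no overlap between ages. The rise in adults was then 3.91-fold (log2 fold change -1.97 ± 0.10, SE, adjusted p = 2.7e-06 in edgeR), and it stayed between -2.05 and -1.90 with each library left out in turn. The pair of entries was thus detected in every library, whereas the Omd row alone was not.

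The class III gene Ogn showed the same kind of split. Osteoglycin, also called mimecan, is a small secreted protein of bone and soft connective tissue. The deposited counts of Ogn were fractional in all 4 libraries, at 2006 and 2307 in neonates and 4944 and 4626 in adults, and again a single entry, NEWGENE_1308171, completed them to whole numbers. The Ogn row held 28.1% and 27.9% of the summed counts in neonates and 36.6% and 31.3% in adults. Alone, Ogn was at 50.8 and 59.9 CPM in neonates and at 131 and 127 CPM in adults, 1.97-fold higher in adults and just under the 2-fold limit (log2 fold change -0.98 ± 0.09, SE, adjusted p = 3e-05). Summed with the other entry, it was at 181 and 214 CPM in neonates and at 357 and 407 CPM in adults. The rise was then 1.63-fold (log2 fold change -0.71 ± 0.10, SE, adjusted p = 0.00029 in edgeR). The ages did not overlap in either reading. The other 8 members had whole counts in every library.

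**Figure D2:**
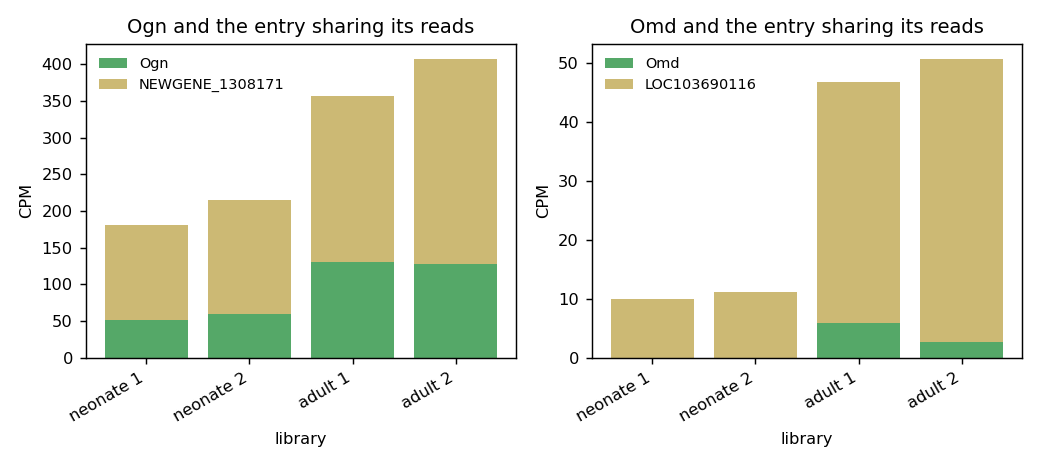
CPM of Ogn (left) and Omd (right) in each library, stacked with the entry whose counts add up with theirs to whole numbers. The Omd row is empty in both neonatal libraries and holds 12.7% and 5.19% of the sum in adults, while the full bars rise from 9.90 and 11.1 CPM to 46.8 and 50.8 CPM.

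Epiphycan, a class III proteoglycan of growth plate cartilage, was the third broadly detected member called. Epyc was at 7.65 and 13.3 CPM in neonates and at 22.3 and 31.3 CPM in adults. The ages did not overlap, but the libraries of an age differed more than for most other members. It rose 2.16-fold in adults (log2 fold change -1.11 ± 0.24, SE, adjusted p = 0.0032 in edgeR). This fold rested on single libraries: it fell under 2-fold without neonatal library 1 (-0.77, adjusted p = 0.0052) and without adult library 2 (-0.89, adjusted p = 0.016).

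**Figure D3:**
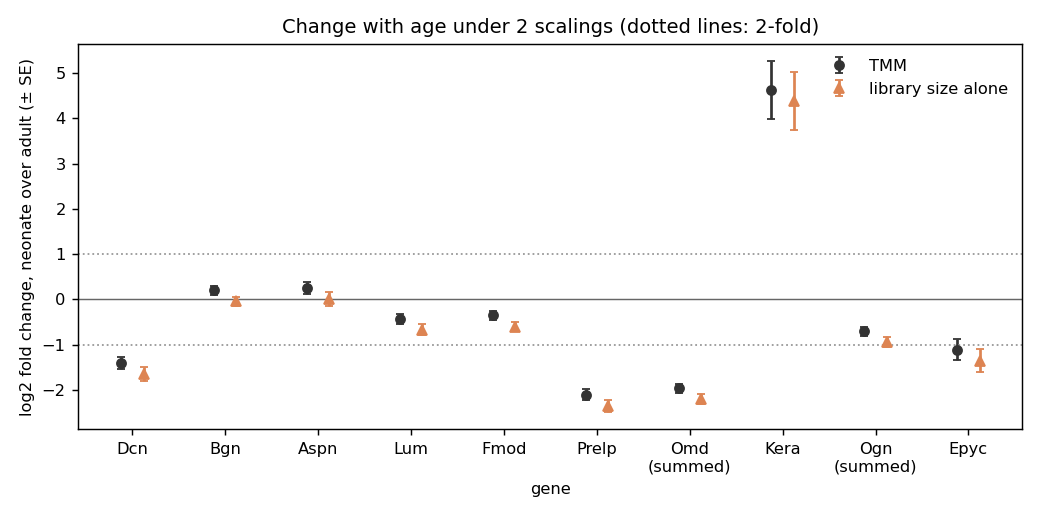
Log2 fold change of each member, neonate over adult, with its SE, after TMM normalization (circles) and by library size alone (triangles). The dotted lines mark 2-fold. Every triangle lies below its circle, and the sign turns for Bgn alone, from 0.20 to -0.05.

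A ratio of the counts of 2 genes within a library does not depend on how libraries are scaled. With 2 libraries against 2, an exact two-sided permutation test cannot give a p under 0.333, so the ratios are given without a test. Dcn had 0.528 and 0.616 counts per count of Bgn in neonates and 1.5 and 2.0 in adults, so that the order of the 2 counts turned between ages. Dcn per Lum went from 0.923 and 0.989 to 1.84 and 1.92. Within class II, Prelp per Fmod went from 0.591 and 0.752 to 2.11 and 2.38. On chromosome 17, the summed Omd pair per Aspn went from 0.0829 and 0.0694 to 0.379 and 0.325, and the summed Ogn pair per Aspn from 1.51 and 1.34 to 2.89 and 2.61. In each of these 5 ratios both adult values were above both neonatal values. Each set a member with a larger rise over one with a smaller rise or none, so this direction follows from the fold changes above. Lum per Bgn and Epyc per Lum were also higher in both adult libraries. Kera per Lum was lower, at 3.6e-05 and 9.6e-05 in adults against 0.00240 and 0.00235 in neonates.

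Col1a1, a chain of the collagen I that these proteins bind, gives a second yardstick. Its log2 fold change was -0.13 ± 0.12 (SE, adjusted p = 0.38 in edgeR). Dcn per Col1a1 was 0.0897 and 0.0929 in neonates and 0.202 and 0.239 in adults, or 2.42-fold higher. Prelp per Col1a1 was 3.93-fold and the summed Omd pair 3.56-fold higher in adults, with no overlap. Against the same collagen, Bgn and Aspn were lower in both adult libraries than in both neonatal libraries, at 0.792 and 0.773 times the neonatal ratio. These directions follow from the fold changes of Bgn, Aspn and Col1a1, none of which passed the test. Fmod per Col1a1 overlapped between ages.

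**Figure D4:**
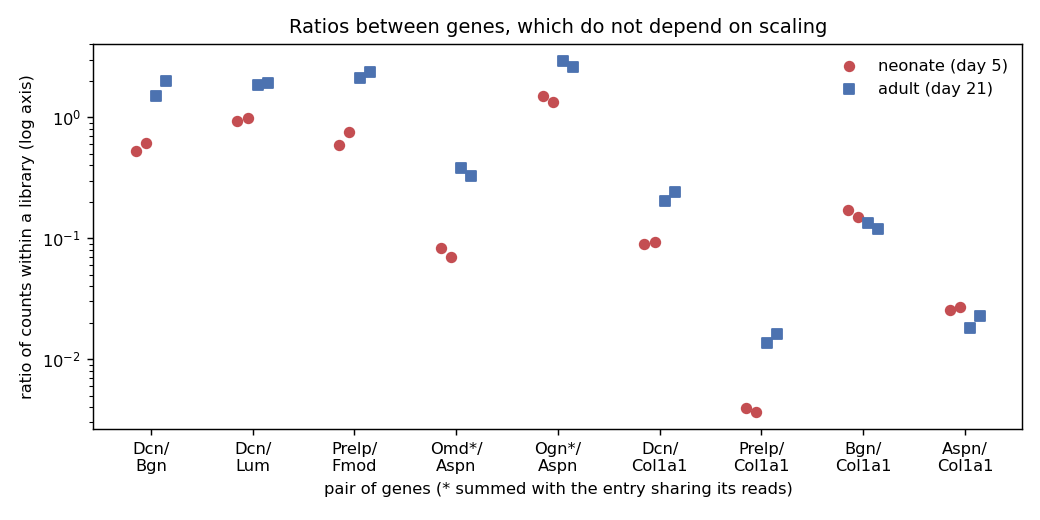
Ratio of the counts of 2 genes within each library, on a log axis, with circles for neonates and squares for adults. The 7 ratios from Dcn/Bgn to Prelp/Col1a1 are higher in both adult libraries, and Bgn/Col1a1 and Aspn/Col1a1 are lower.

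Most fibroblast markers, but not all, were higher in adults. Of the 9 listed, 8 were in the table and tested. Of these, 5 passed the test with higher levels in adults and 0 in neonates, against 31.1% and 31.2% of all genes. Among the 5, 3 were called, against 13.2% of all genes called higher in adults. Twist2 (log2 fold change 0.41), Mfap5 (-0.25) and Col1a1 (-0.13) did not pass. Scara5, a ferritin receptor of fibroblasts around vessels, had a log2 fold change of -3.26, Pi16 of -1.78 and Clec3b of -1.08, and the median of the list was -0.86. The list summed to 4964 and 6253 CPM in neonates and to 7421 and 7749 CPM in adults, but most of each sum was Col1a1, which did not pass the test and was at 4676 and 5890 CPM against 6768 and 6917 CPM. Per count of Dpt, a matrix protein of fibroblasts, Dcn was 5.17 and 5.32 in neonates and 7.86 and 7.79 in adults, and Prelp was 2.42-fold higher in adults. Per count of Dpt, Lum was 0.760 times and Bgn 0.495 times its neonatal ratio in adults, both without overlap. Per count of Pdgfra, a receptor of fibroblasts, Dcn was 1.45-fold and Prelp 2.36-fold higher in adults, with Bgn at 0.487 times. Dpt and Pdgfra had log2 fold changes of -0.83 and -0.89, smaller than those of the 3 called markers. Of those 3, Scara5 and Pi16 changed more than Dcn (-1.40), and only Scara5 changed more than Prelp (-2.11). The direction of such a ratio therefore depends on the marker chosen. Ratios to such markers show unequal change only. The part of fibroblast number in the members' levels was not tested.

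Adipocyte markers were higher in adults too. Of the 4 markers, 3 were tested and all 3 were called higher in adults, against 13.2% of all genes. Of the 3, Cidec passed the filter through the adult libraries alone. The list had sums of 4.71 and 6.00 CPM in neonates and 26.3 and 39.1 CPM in adults. The 4 smooth muscle markers summed to 548 and 593 CPM against 783 and 927 CPM. Of them, 2 passed the test with higher levels in adults and 0 were called, against 31.1% and 13.2% of all genes. The part of these cells in the members' levels was not tested either.

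Of 8 other genes of the family listed, 6 were in the table and 3 were tested. Of these, 2 were called higher in adults and 0 in neonates, against 13.2% and 7.68% of all genes. Optc, encoding opticin and lying beside Prelp on chromosome 13, was at 0.355 and 0.338 CPM in neonates and at 1.11 and 1.02 CPM in adults (log2 fold change -1.37 ± 0.45, SE, adjusted p = 0.025 in edgeR). Chadl, a chondroadherin-like collagen binder, was at 4.89 and 3.74 CPM in neonates and at 11.4 and 13.5 CPM in adults (-1.28 ± 0.22, SE, adjusted p = 0.0011). Tsku, tsukushi, did not pass the test, at 14.7 and 10.4 CPM against 12.6 and 14.3 CPM. Optc passed the filter through the adult libraries alone.

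Enzymes that build the sugar chains of these proteins mostly did not differ 2-fold. Of 23 enzymes of chondroitin and dermatan sulfate, 21 were tested. Of these, 3 were called higher in adults and 0 in neonates, against 13.2% and 7.68% of all genes, so the calls toward adults were near that share. At any fold, 11 of the 21 passed with higher levels in adults and 4 in neonates, against 31.1% and 31.2% of all genes. Their median log2 fold change was -0.40, against -0.0029 over all genes tested. Xylt1, which adds the first xylose to the core protein, had 5 and 8 counts in neonates and 165 and 138 counts in adults (log2 fold change -4.35 ± 0.43, SE, adjusted p = 4.6e-05 in edgeR). Xylt1 passed the filter through the adult libraries alone, so the direction of its call was built in. Its paralogue Xylt2 was at 52.5 and 47.9 CPM in neonates and 46.8 and 49.7 CPM in adults. Chst15, a sulfotransferase, had a log2 fold change of -1.53 and B3galt6, a galactosyltransferase of the linkage region, of -1.20. Of 6 enzymes of keratan sulfate, 5 were tested, 1 was called higher in adults and 0 in neonates, against the same 13.2% and 7.68%. The 1 called was B3gnt2, which extends the lactosamine backbone. It was at 40.0 and 40.0 CPM in neonates and 101 and 103 CPM in adults (-1.11 ± 0.08, SE, adjusted p = 1.2e-05 in edgeR).

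Fibrillar collagens, the main ligands of the family, gave a mixed picture with age. Of 9 genes, 8 were tested, 0 were called higher in adults and 2 in neonates, against 13.2% and 7.68% of all genes. The 2 were Col2a1 (log2 fold change 3.31) and Col11a2 (1.18). At any fold, 1 passed with higher levels in adults and 3 in neonates, against 31.1% and 31.2% of all genes. The list median was -0.15. The list summed to 11750 and 14455 CPM in neonates and to 16775 and 18849 CPM in adults. Most of each sum was Col1a1 and Col3a1, which did not pass the test. Of 11 growth factors and receptors that members are known to bind, 10 were tested and 5 were called higher in adults, with Met at -2.47, Igf1r at -2.08 and Egfr at -1.44, and 0 were called higher in neonates, against 13.2% and 7.68% of all genes. Met was at 0.887 and 0.675 CPM in neonates and at 4.31 and 5.98 CPM in adults. It passed the filter through the adult libraries alone, so the direction of its call was built in.

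Among 13 proteases and their helpers that act on the core proteins, 8 were tested. Of these, 2 were called higher in adults and 0 in neonates, against 13.2% and 7.68% of all genes. Tll1, a tolloid-like protease, had a log2 fold change of -2.07 and Adamts5, an aggrecanase, of -1.20. Bmp1, which trims the propeptide of biglycan, passed the test in the other direction (0.60 ± 0.11, SE, adjusted p = 0.0013 in edgeR), at 286 and 296 CPM in neonates and 200 and 255 CPM in adults. Of 23 other proteoglycans, 22 were tested, 6 were called higher in adults and 3 higher in neonates, against 13.2% and 7.68% of all genes. Acan, like Optc, Xylt1 and Met, passed the filter through the adult libraries alone. Spock2 (-3.81), Prg4 (-2.55) and Acan (-2.20) led toward adults, and Gpc2 (2.18), Agrn (1.08) and Vcan (1.03) toward neonates.

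**Figure D5:**
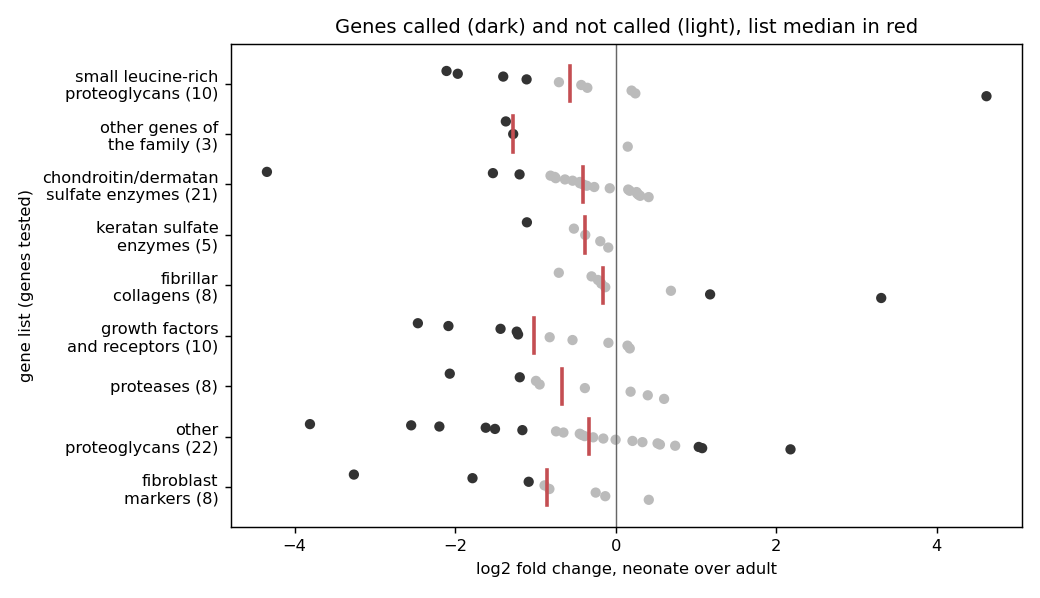
Log2 fold change, neonate over adult, of the genes tested in each list, dark where called and light where not, with the list median as a red line. Omd and Ogn are drawn summed with the entry sharing their reads, which puts the median of the 10 members at -0.57. Kera is the point at 4.62.

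The genes whose pattern over the 4 libraries was closest to that of a member were named by the distance between their centred log2 levels, in log2 units. For Dcn these were Fam102b (0.0317), LOC100909657 (0.0695) and Itga11 (0.0724), the last a subunit of a collagen-binding integrin. For Kera they were Slc9a5 (0.396), Col2a1 (0.510) and Col20a1 (0.593). For the deposited Omd row they were Gatd1 (0.586), LOC100910196 (0.656) and LOC103692171 (0.951). These 3 rows were, like Omd, at 0 in both neonatal libraries and fractional in both adult libraries, and for each of them exactly 1 other entry completed the counts to whole numbers. For Gatd1 that entry was LOC100911365, with 1063 and 1085 counts in neonates and 1433 and 1404 counts in adults. As for Omd, these matches rest on the adult libraries alone.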

How the data were processed

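RNA of whole CBs was measured in 4 poly A+ libraries. The values deposited by the authors are estimated counts for each gene, made with STAR and Salmon (1.5.2 per the processing notes) on the rat genome Rnor_6.0, neither normalized nor filtered. The members and gene lists were chosen with earlier results of these data known. Estimated counts were rounded, and 642 entries annotated as other than protein-coding in the RefSeq table of GRCr8 were removed by symbol. Entries with at least 1 CPM in 2 libraries were tested with edgeR 4.0.16 in R 4.3.3 (TMM, quasi-likelihood, no covariates). CPM, ratios and motifs were computed in Python 3.11.15 with pandas 2.3.3. Between 5.02% and 6.19% of entries in a library were fractional. The totals and the floor of 3 counts set the precision. Named genes were all members, up to 3 called genes per direction and list with the largest fold, the 3 nearest patterns to Dcn, Omd and Kera, and markers that bear on a result. Other genes were chosen after their values were seen. Alternatives were DESeq2 1.42.0, limma-voom (limma 3.58.1), other scalings and filters, a replicate block, each library left out and, added after seeing the data, read-sharing entries summed. The procedure was tested on simulated data. A marker gene is not reported here.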

Additional observations from a re-analysis of the deposited data

How the results depend on the processing

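Dcn, Prelp and the Omd pair kept their direction and their call in every alternative that tested them. The Omd row alone was not tested with a mean of at least 5 CPM or without either adult library. Over all 10 members, 4 were called higher in adults, against 13.2% of all genes. Without a minimum fold, 7 members passed toward adults, against 31.1% of all genes. Both counts include the Omd row, whose difference was built into the filter. The 1 member higher in neonates, Kera, became 0 with a mean of at least 5 CPM and 0 to 1 with a library left out, because it was then not tested. The members' median minus that of all genes was -0.70, and between -1.056 (without neonatal library 2) and -0.355 (without adult library 2) with a library left out. Summed pairs gave -0.57. Bgn turned to -0.046 by library size alone, with or without summed entries. Ogn alone passed 2-fold by library size (-1.22), with either other filter (-1.02 and -1.004) and without adult library 2 (-1.03) or neonatal library 2 (-1.06), but its sum did not (-0.95 by library size). With 2 libraries per age, the pooled spread stands in for an age left with 1 library. Same-numbered libraries did not deviate together (r = -0.02 over 13838 genes), so they share a number only. The replicate block gave 4 members called higher in adults and 1 in neonates, again with the Omd row and Kera among them. With it the adjusted p of Aspn was 0.0095 in edgeR. By library size alone, 5 chondroitin and dermatan sulfate enzymes and 4 proteases were called higher in adults in place of 3 and 2, and 1 fibrillar collagen and 1 other proteoglycan higher in neonates in place of 2 and 3. A mean of at least 5 CPM left 1 such enzyme, 2 growth factor receptors in place of 5 and 3 other proteoglycans in place of 6. Only 1 other gene of the family was called in place of 2 with DESeq2, with no filter, with a mean of at least 5 CPM, or without adult library 1, adult library 2 or neonatal library 2, and 3 other proteoglycans in place of 6 without adult library 2. Without neonatal library 1, 3 proteases in place of 2 and 5 other proteoglycans in place of 6 were called higher in adults. At this depth the adult counts of Kera were at or under the floor of 3.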
